A study of Medicago truncatula with 16 samples.

Results

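The 200 genes described here were those with the deepest fall after osmotic treatment in both tissues and at both stages of germinating *Medicago truncatula* seeds. They were chosen from measured values. For each gene on a chromosome, each count was scaled to CPM, the count per 1000000 counts of its library, and the treated and untreated group means were compared as a difference of log2(mean CPM + 1), and a gene was kept if this difference was -1 or lower in all 4 comparisons of treated with untreated samples. Of 44316 such genes, 784 passed, and the 200 whose least negative difference was lowest were taken as members. The study measured RNA by sequencing in dissected radicles (the embryonic root) and cotyledons (the seed leaves) of cultivar A17. Untreated samples came from seeds with a radicle of 1 mm (R1, C1) or 5 mm (R5, C5), where R stands for radicle and C for cotyledon. The treated samples R1P, R5P, C1P and C5P came from seeds of the same 2 stages kept in polyethylene glycol (PEG) at -1.7 MPa for 3 days at 10 °C in the dark. Each of the 8 groups had 2 biological replicates, each a pool of seeds, and none was held in the cold and dark in water alone, so that osmotic stress, cold, darkness and elapsed time cannot be told apart. The labels give both 50 and about 100 seeds per sample, and call the tissue desiccated in one place and freshly harvested in another.

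A dry seed survives the loss of nearly all its water, and this desiccation tolerance is lost once the radicle emerges and grows. A mild osmotic stress given shortly after emergence can bring it back, with growth halted and seed maturation genes switched on again. Growth of a radicle relies on water uptake with loosening and synthesis of the cell wall, on membrane and surface lipids, on sugar import and on hormones such as auxin and ethylene. Cotyledons of legumes hold the reserves that feed the seedling and later become photosynthetic.

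Library totals were 22012976 to 23257652 estimated counts. Members took 2.89% to 4.47% of the counts of chromosomal genes in untreated libraries and 0.284% to 0.501% in PEG libraries. Replicates correlated on log2 CPM at r of 0.966 to 0.991 across genes, except C1P at 0.943. The second C1P library stood apart, with 4.06% of its counts from chloroplast-encoded genes against 0.313% to 0.923% in the other cotyledon libraries and 0.046% to 0.265% in radicles. When it was left out, all 200 members still passed the rule and 190 were still among the 200 lowest. The tissue labels could be checked only in part, since the 2 chlorophyll a/b-binding genes summed to 0.832 and 1.07 CPM in R1 against 10.5 and 10.9 in C1, but to 11.4 and 8.66 in R5 against 14.9 and 8.38 in C5. Their sum was higher in each PEG group than in its untreated group, as was that of 14 oleosin, legumin and vicilin genes, which stood at 40.6 to 329 CPM in untreated and 2034 to 9201 CPM in PEG libraries. A list of 10 Casparian strip and WOX genes, taken as root markers, gave 141 and 151 CPM in R1 against 84.8 and 74.5 in C1, but did not separate the tissues at 5 mm, with 148 and 173 in R5 against 173 and 144 in C5. It summed to 74.5 to 173 CPM in untreated and 106 to 668 CPM in PEG libraries. In whole tissue, fewer cells of a type and less RNA per cell cannot be told apart, and the part of these lists in the fall of the members was not tested.

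After PEG the members stood far below their untreated level in both tissues and at both stages. The median member kept 12.4% of its untreated CPM in R1P, 11.3% in R5P, 8.86% in C1P and 12% in C5P. The median differences on the log2(CPM + 1) scale were -2.49, -2.75, -2.89 and -2.81 in the same order. Over all genes of at least 1 CPM the medians were -0.37, -0.27, -0.49 and -0.10. Since the rule set these differences, they are a description and carry no test.

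**Figure D1:**
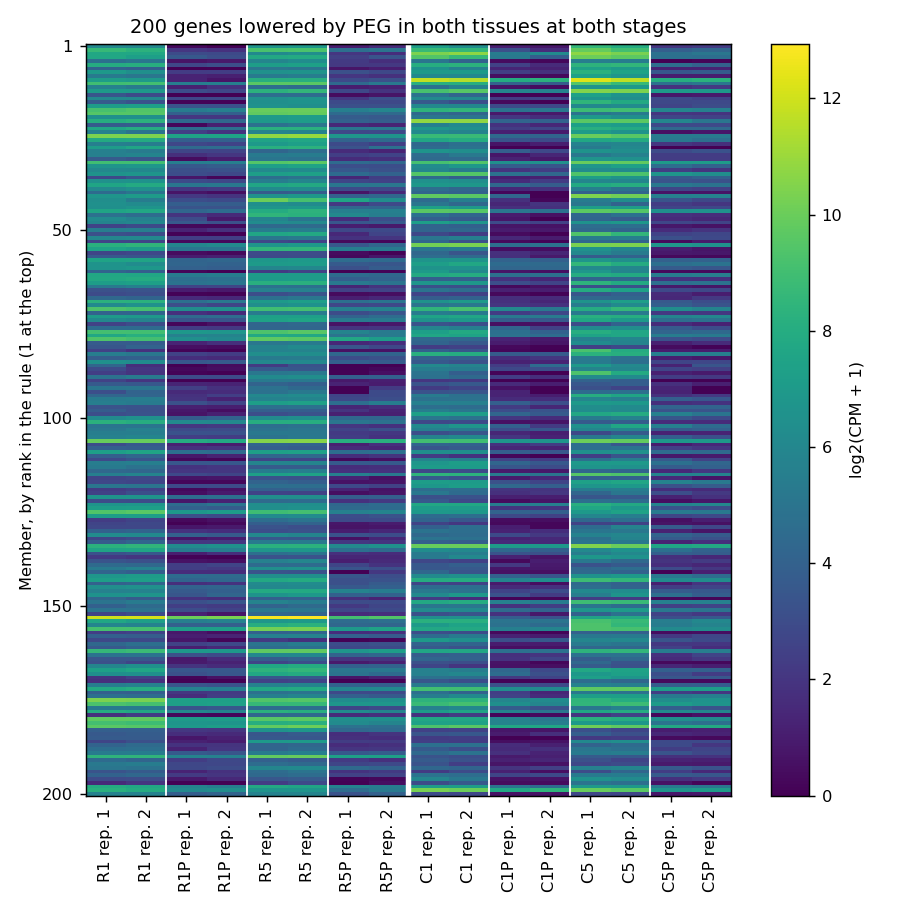
Level of each of the 200 members (rows, in the order of the rule) in each of the 16 libraries (columns), as log2(CPM + 1) on a colour scale from dark (0) to yellow. The PEG columns are darker than the untreated columns beside them in both tissues, and 137 members have all 8 PEG libraries below all 8 untreated libraries.

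In all 4 comparisons the treated libraries of each of the 200 members lay below the untreated ones of the same tissue and stage. Over all genes tested this was so for 54.8% in R1P, 51.5% in R5P, 56.7% in C1P and 37.3% in C5P. For 137 members all 8 PEG libraries lay below all 8 untreated libraries, which 5.24% of all genes did. A gene was called where edgeR's quasi-likelihood test gave an adjusted p below 0.05 with a log2 fold change beyond 1 in either direction. All members but 1 were called lower in R1P (20.5% of all genes tested), 200 in R5P (20.4%), 197 in C1P (14.9%) and all but 1 in C5P (12.1%), and 197 in all 4 (2.91%). Called higher were 15.2% of all genes in R1P, 18.9% in R5P, 13.8% in C1P and 9.02% in C5P. Nothing is read from these counts, because the rule used the same libraries. With library totals in place of edgeR's TMM scaling, which corrects for a shift of most genes, the median of all genes shifted by -0.37 in R1P, -0.35 in R5P, -0.58 in C1P and -0.10 in C5P. The members' TMM-scaled medians were -2.64, -2.79, -2.93 and -2.97, against medians of all genes between -0.12 and -0.01.

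**Figure D2:**
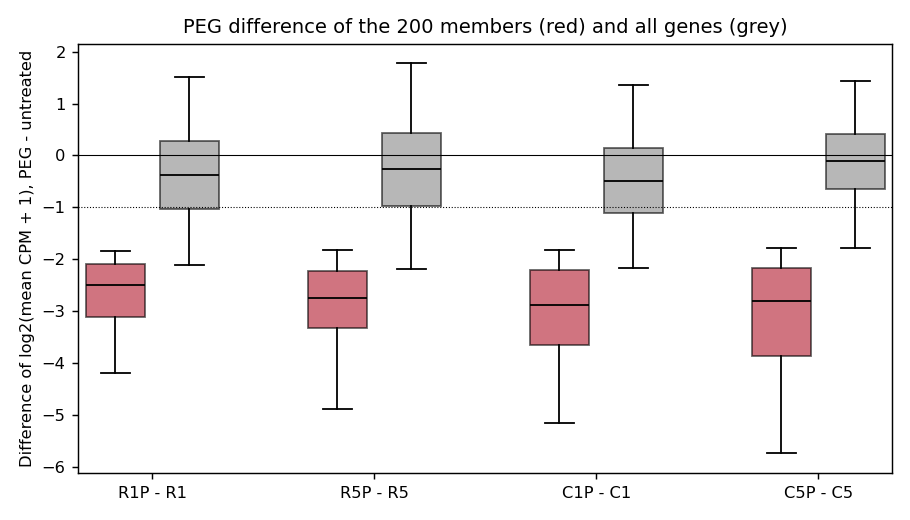
Difference of log2(mean CPM + 1) between PEG and untreated samples in the 4 comparisons, for the 200 members (red) and for all genes of at least 1 CPM (grey). Boxes run from the lower to the upper quartile with the median as a line, whiskers run from the 5th to the 95th percentile, and the dotted line marks -1. The members' medians lie between -2.89 and -2.49 and those of all genes between -0.49 and -0.10.

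The members did not fall by like amounts in the 4 comparisons. The steepest of a member's 4 differences was that of C5P for 67 members, C1P for 56, R5P for 48 and R1P for 29. Within a member the 4 differences spanned a median of 1.32 log2 units, with 60 members under 1 and 49 over 2. All 4 differences were under -2 for 109 members, under -3 for 23 and under -4 for 7. At the edge of the rule, the last member but one, the SWEET sugar transporter gene MtrunA17_Chr1g0159431, had a least negative difference of -1.73, and the last member, the acid-thiol ligase gene MtrunA17_Chr2g0301671, had -1.72. The first genes left out were MtrunA17_Chr3g0131441, described as calreticulin or calnexin, and MtrunA17_Chr6g0467861, described as a shikimate O-hydroxycinnamoyltransferase, both also at -1.72.

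Of the 10 members ranked lowest by the rule, 6 had no description in the tables used. The first, MtrunA17_Chr6g0485451, is one of these. It stood at 64.5 and 63.1 CPM in R1 against 0.202 and 0 in R1P, and at 101 and 116 in R5 against 1.01 and 1.94 in R5P. In cotyledons it stood at 148 and 79.2 CPM in C1 against 1.13 and 0.733 in C1P, and at 382 and 253 in C5 against 3.00 and 3.74 in C5P. The highest PEG library of this gene was thus below the lowest untreated one, in whichever tissue. MtrunA17_Chr2g0294751 gave 401 and 315 CPM in R1 and 597 and 622 in R5 against 3.10 and 2.64 in R1P and 25.2 and 30.6 in R5P. Its cotyledon values were 421 and 372 in C1, 7.90 and 2.13 in C1P, 956 and 526 in C5 and 14.4 and 18.1 in C5P. This gene was left at a higher level in R5P than in R1P, with no overlap of the libraries. MtrunA17_Chr3g0119951 was more abundant in cotyledons, with 1336 and 1722 CPM in C1 and 1731 and 1286 in C5 against 42.2 and 71.1 in C1P and 27.8 and 34.5 in C5P. In radicles it stood at 207 and 204 CPM in R1 and 68.9 and 82.4 in R5 against 6.81 and 6.31 in R1P and 3.09 and 2.22 in R5P. Before PEG its cotyledon libraries lay above its radicle libraries at both stages.

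**Figure D3:**
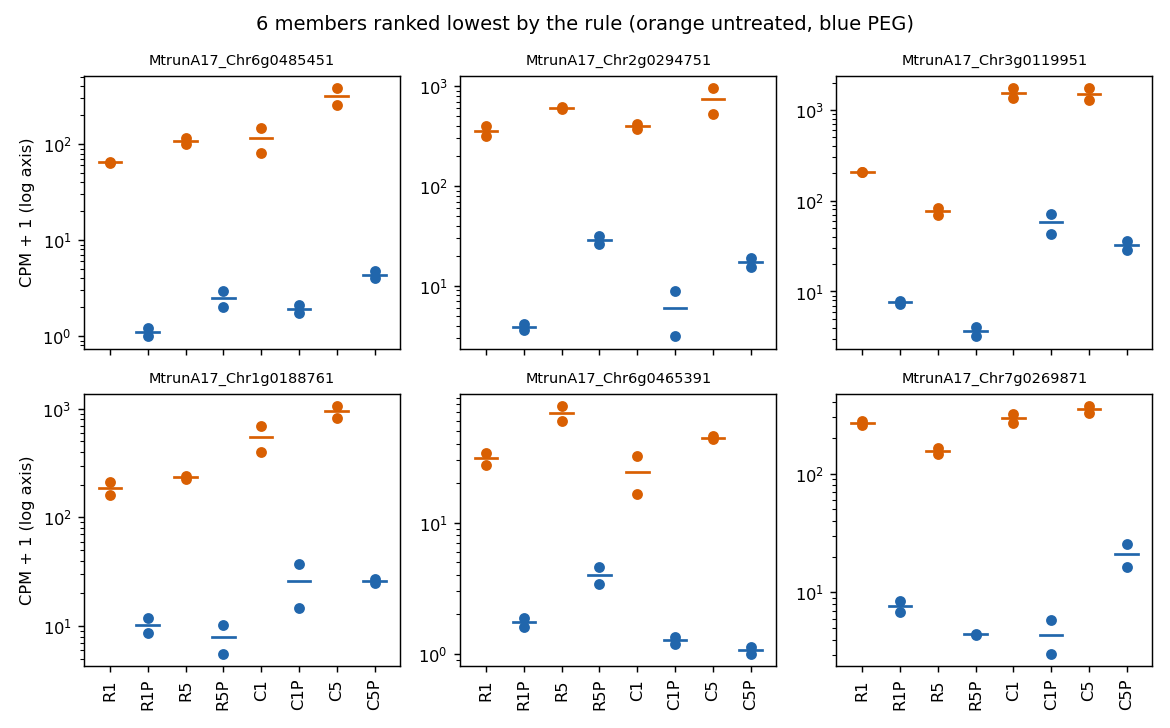
CPM + 1 on a log axis in each library of the 8 groups, for the 6 members ranked lowest by the rule. Points are libraries (orange untreated, blue PEG) and bars are group means of 2. In 5 of the panels the 8 blue points lie below the 8 orange points, and in that of MtrunA17_Chr3g0119951 the highest blue point (71.1 CPM in C1P) lies just above the lowest orange point (68.9 CPM in R5).

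Among the described genes near the top, the alpha-galactosidase gene MtrunA17_Chr1g0188761 codes for an enzyme type that removes galactose from oligosaccharides and wall polymers. It had 209.9 and 159 CPM in R1, 226 and 238 in R5, 697 and 402 in C1 and 1059 and 829.9 in C5. After PEG it had 10.8 and 7.56 CPM in R1P, 4.55 and 9.28 in R5P, 36.6 and 13.7 in C1P and 26.2 and 24.1 in C5P. MtrunA17_Chr6g0465391 codes for an alcohol-forming fatty acyl-CoA reductase, which makes the fatty alcohols of waxes and suberin. Its untreated values were 26.7 and 33.3 CPM in R1, 58.7 and 76.7 in R5, 31.2 and 15.5 in C1 and 44.8 and 42.4 in C5. Its PEG values were 0.611 and 0.864 in R1P, 3.58 and 2.40 in R5P, 0.353 and 0.189 in C1P and 0 and 0.133 in C5P, so that next to no reads were left in the cotyledons. The O-methyltransferase gene MtrunA17_Chr5g0432241 and the peroxidase gene MtrunA17_Chr4g0075241 followed. The peroxidase, of a family that oxidises phenolics in the wall, was at 70.4 and 65.8 CPM in C1 and 168 and 109.9 in C5 against 0.397 and 0.237 in C1P and 1.03 and 1.06 in C5P. In radicles it was at 39.5 and 32.7 CPM in R1 and 39.3 and 43.6 in R5 against 1.48 and 1.17 in R1P and 3.09 and 2.48 in R5P. Its log2(CPM + 1) differences were -4.0, -3.49, -5.71 and -6.10 in R1P, R5P, C1P and C5P, steeper in cotyledons than in radicles.

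A description in the study's supplementary tables was found for 96 members, 85 of them with a function, and the groups below hold only such genes. The copies of those tables used here hold 4748 genes, and some of these copies are shortened. Some members without a description may therefore have one in the full tables. The study picked the genes mainly on the difference between R1P and R1, so counts over them are not independent evidence of a direction.

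Of 90 genes described with cell wall functions, 8 were members. They include a pair of cellulose synthase genes, 3 glucan endo-1,3-beta-D-glucosidase genes, a pectin acetylesterase gene, a gene with a PMR5 domain (found in enzymes that acetylate wall polymers) and a fasciclin-like arabinogalactan protein gene. The cellulose synthase gene MtrunA17_Chr2g0322331 gave 91.8 and 96.3 CPM in R1, 43.2 and 58.3 in R5, 93.2 and 81.9 in C1 and 59.0 and 57.7 in C5. PEG left 6.43 and 5.74 CPM in R1P, 5.48 and 4.71 in R5P, 1.97 and 3.98 in C1P and 8.83 and 8.12 in C5P, without overlap. Its counts, and those of its neighbour MtrunA17_Chr2g0322341, were not whole numbers in most libraries, since reads were shared out between transcripts, so the values of the pair are uncertain one by one. The pectin acetylesterase gene MtrunA17_Chr1g0193381, for an enzyme that removes acetyl groups from pectin, was at 219.9 and 245 CPM in R1 and 132 and 138 in R5, and at 25 and 27.1 in R1P and 13.4 and 16.1 in R5P. In cotyledons its level was low before PEG too, at 14.2 and 14.2 CPM in C1 and 16.8 and 18.9 in C5, and 2.56 and 1.61 in C1P and 2.68 and 2.44 in C5P. The glucan endo-1,3-beta-D-glucosidase gene MtrunA17_Chr1g0189111, whose enzyme type cuts callose, had differences of -2.49, -3.14, -2.59 and -1.88 in R1P, R5P, C1P and C5P. Over the whole list, 60 of 85 tested genes were called lower and 18 higher in R1P, 48 and 16 in R5P, and of 81 tested 32 and 9 in C1P and 28 and 9 in C5P. Over all genes with an entry in those tables, 2048 of 4475 tested were lower and 2010 higher in R1P, and 1510 and 1713 in R5P. Of 4267 tested, 1027 were lower and 1200 higher in C1P, and 552 and 796 in C5P. The counts of this list and of those below are to be read beside these.

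A further 6 members were found among 22 genes of a list of carbohydrate-active wall enzymes, drawn up after the members had been seen. Of 18 tested genes of that list, 13 were called lower and 4 higher in R1P, 11 and 3 in R5P, 12 and 2 in C1P and 8 and 1 in C5P. The beta-glucosidase gene MtrunA17_Chr4g0006131, for an enzyme type that releases glucose from glucosides, stood at 4026 and 4461 CPM in R1 and 6917 and 7844 in R5 against 1061 and 1288 in R1P and 545 and 687 in R5P. In cotyledons the same gene had 85.2 and 90.8 CPM in C1, 179.9 and 224 in C5, 13.6 and 8.81 in C1P and 8.01 and 11.7 in C5P. It kept far more reads in R1P than in any other PEG group relative to the untreated level, with differences of -1.85, -3.58, -2.87 and -4.22 in R1P, R5P, C1P and C5P. The others of this list, named after their values were seen, include the beta-xylosidase gene MtrunA17_Chr4g0050591 with differences of -3.95, -3.31, -4.67 and -2.88 in R1P, R5P, C1P and C5P.

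Among 61 genes of lipids and the cuticle, 7 were members. Besides the fatty acyl-CoA reductase gene, these were a phospholipase D gene, a pair of triacylglycerol lipase genes, an SGNH-type esterase gene and a pair of genes of very-long-chain fatty acid elongation. The elongation enzymes lengthen fatty acids for waxes, suberin and sphingolipids. The 3-oxoacyl-CoA synthase gene MtrunA17_Chr6g0469631, which codes for the condensing enzyme, had 26.8 and 23.32 CPM in R1, 47.6 and 58.6 in R5, 43.2 and 68.7 in C1 and 150.1 and 151 in C5. With PEG it had 2.08 and 4.17 CPM in R1P, 14.7 and 11.6 in R5P, 4.94 and 2.15 in C1P and 37.9 and 47.8 in C5P. The 4 PEG libraries of the 5 mm stage all lay above the 4 of the 1 mm stage. The 3-hydroxyacyl-CoA dehydratase gene MtrunA17_Chr8g0367561, for a later step of the same cycle, had differences of -2.33, -1.79, -2.70 and -2.51 in R1P, R5P, C1P and C5P, and the triacylglycerol lipase gene MtrunA17_Chr5g0404141, for an enzyme type that breaks down storage oil, had -1.98, -1.91, -2.92 and -2.53 in R1P, R5P, C1P and C5P. Over the list, 37 of 61 tested genes were called lower and 22 higher in R1P, 25 and 21 in R5P, and of 56 tested 22 and 13 in C1P and 17 and 10 in C5P.

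Of 169 membrane transport genes, 8 were members, and both SWEET genes among them carry sugars across membranes. MtrunA17_Chr2g0278491 gave 132 and 65.5 CPM in C1 and 111 and 55.3 in C5 against 0.662 and 0.426 in C1P and 0.268 and 0.266 in C5P. In radicles it gave 17.0 and 13.4 CPM in R1 and 3.58 and 4.79 in R5 against 0.131 and 0 in R1P and 0 and 0.0872 in R5P. All 8 PEG libraries of this gene were under 1 CPM. The other SWEET gene, MtrunA17_Chr1g0159431, kept more, with 212 and 335 CPM in C1P and 102 and 131 in C5P from 1254 and 1064 in C1 and 988 and 794 in C5. Its radicle values were 299 and 248 CPM in R1 and 101 and 107 in R5 against 68.7 and 79.4 in R1P and 24.0 and 37.6 in R5P. An amino acid transporter gene, MtrunA17_Chr5g0447231, had nearly even differences of -2.62, -2.64, -2.75 and -2.90 in R1P, R5P, C1P and C5P, and the ABC-type transporter gene MtrunA17_Chr2g0295911 had -2.78, -3.30, -3.14 and -2.24 in R1P, R5P, C1P and C5P. A sucrose/H+ symporter gene, MtrunA17_Chr6g0462451, chosen after its values were seen, had -1.86, -2.64, -2.38 and -3.14 in R1P, R5P, C1P and C5P. Over the list, 95 of 160 tested genes were called lower and 51 higher in R1P, 74 and 46 in R5P, and of 153 tested 50 and 28 in C1P and 28 and 36 in C5P.

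Redox enzymes gave 5 members of 98. Both cytochrome P450 genes in this group bear family names whose M. truncatula members oxidise triterpenes on the way to saponins. MtrunA17_Chr2g0288661, named as P450 716A67, had 801 and 734 CPM in R1 against 121 and 148 in R1P and 916 and 1073 in R5 against 28.2 and 25.8 in R5P. In cotyledons it had 629 and 791 CPM in C1 against 217 and 197 in C1P and 1121 and 843 in C5 against 219 and 230.3 in C5P. MtrunA17_Chr2g0307301, named as P450 72A68, had differences of -3.40, -5.15, -2.79 and -2.77 in R1P, R5P, C1P and C5P, and in both genes the R5P difference was the steepest of the 4. The L-ascorbate oxidase gene MtrunA17_Chr3g0118321, for an enzyme that oxidises ascorbate outside the cell, was at 652 and 540 CPM in R1 and 841 and 786 in R5 against 88.6 and 69.2 in R1P and 215 and 139 in R5P. In cotyledons it was at 19.7 and 18.9 CPM in C1 and 48.6 and 59.2 in C5 against 1.41 and 0.853 in C1P and 8.55 and 7.09 in C5P. In the list as a whole more genes were called higher than lower with PEG, 46 and 39 of 95 tested in R1P, 43 and 26 in R5P, and of 82 tested 34 and 21 in C1P and 24 and 21 in C5P.

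Of 34 genes of central carbon and organic acid metabolism, in a list also drawn up after the members had been seen, 5 were members. Over that list, 18 of 32 tested genes were called lower and 14 higher in R1P, and 17 and 8 in R5P. Of 33 tested, 16 were lower and 11 higher in C1P, and 13 and 5 in C5P. The ATP citrate synthase gene MtrunA17_Chr2g0309471 codes for an enzyme that splits citrate to give acetyl-CoA in the cytosol. It stood at 1340.2 and 1396 CPM in R1, 1757 and 1994 in R5, 421 and 434 in C1 and 1003 and 767 in C5. After PEG it stood at 176 and 183 CPM in R1P, 107 and 97.8 in R5P, 21.0 and 17.9 in C1P and 39.9 and 38.6 in C5P, with no overlap in any comparison. The phosphoglycerate dehydrogenase gene MtrunA17_Chr4g0000511, for the first step of serine synthesis in plastids, was a radicle gene before PEG, at 306 and 271 CPM in R1 and 263 and 267 in R5 and only 5.75 and 6.63 in C1 and 11.7 and 13.2 in C5. It went to 72.3 and 65.7 CPM in R1P, 33.0 and 28.5 in R5P, 0.485 and 0.616 in C1P and 1.97 and 2.04 in C5P. Enzymes of the mitochondrial pyruvate and citrate route were chosen after their values were seen. Those of the fumarate hydratase gene MtrunA17_Chr1g0195131 were -2.24, -2.61, -2.86 and -2.20 in R1P, R5P, C1P and C5P. Those of the NAD-dependent isocitrate dehydrogenase gene MtrunA17_Chr8g0370691 were -2.74, -2.63, -2.74 and -2.01 in R1P, R5P, C1P and C5P, and those of the pyruvate dehydrogenase gene MtrunA17_Chr8g0364201 were -1.98, -2.14, -1.84 and -1.78 in R1P, R5P, C1P and C5P.

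Members made up 96 of all 4748 genes with an entry in those tables, and the lists of regulators can be read against that share. The hormone list gave 1 of 27, the small auxin-up RNA gene MtrunA17_Chr1g0156341, of a family that auxin induces and that promotes cell expansion in Arabidopsis. It had 82.1 and 92.3 CPM in R1 and 62.6 and 68.8 in R5 against 16.1 and 17.4 in R1P and 11.2 and 14.7 in R5P. In cotyledons it had 22.3 and 24.4 CPM in C1 and 23.7 and 16.3 in C5 against 1.94 and 2.65 in C1P and 4.12 and 5.36 in C5P. A pair of hormone enzymes that the list's patterns did not catch were also members, and were picked out after their values were seen. The ACC oxidase gene MtrunA17_Chr3g0125201, for the last step of ethylene synthesis, had 742 and 728 CPM in R1 and 864 and 946 in R5 against 14.7 and 14.4 in R1P and 21.6 and 21.5 in R5P. Its cotyledon level was far lower, 20.1 and 16.8 CPM in C1, 0.838 and 0.758 in C1P, 28.9 and 38.5 in C5 and 3.00 and 2.88 in C5P. The GH3 gene MtrunA17_Chr2g0318991, of a family that joins amino acids to auxin and other hormones, had differences of -2.86, -2.97, -3.07 and -3.41 in R1P, R5P, C1P and C5P. The hormone list as a whole did not fall. Of 25 tested genes 13 were called higher and 7 lower in R1P, and 14 and 5 in R5P. Of 21 tested, 9 were higher and 6 lower in C1P, and 5 and 5 in C5P.

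Transcription regulators gave 4 members of 495, one each of the WD40-like, MYB-HB-like, C2H2 and WOX families. The WOX gene MtrunA17_Chr3g0119291, of a homeobox family with roles in stem cell niches and organ formation, was at 24.8 and 25.7 CPM in R1 and 17.0 and 22.4 in R5 against 1.40 and 3.11 in R1P and 3.00 and 3.31 in R5P. In cotyledons it was at 11.5 and 7.63 CPM in C1 and 32.3 and 26.8 in C5 against 1.90 and 2.32 in C1P and 4.16 and 5.18 in C5P. Over the list, 220 of 482 tested genes were called higher and 210 lower in R1P, 207 and 140 in R5P, and of 453 tested 128 and 107 in C1P and 104 and 47 in C5P. In R1P and C1P these shares were close to those over all genes with an entry. Receptor-like kinases gave 3 members of 93, and over that list 60 of 87 tested genes were called lower and 15 higher in R1P, 45 and 8 in R5P, and of 81 tested 29 and 4 in C1P and 11 and 5 in C5P. Among its members, the wall-associated kinase gene MtrunA17_Chr5g0415341 had differences of -1.89, -2.20, -2.07 and -1.95 in R1P, R5P, C1P and C5P. The list of cell cycle, DNA replication and chromosome genes gave 2 of 93, the DNA topoisomerase gene MtrunA17_Chr1g0147751 and the histone H3 demethylase gene MtrunA17_Chr5g0410721. Over that list 71 of 90 tested genes were called lower and 13 higher in R1P, 63 and 11 in R5P, and of 84 tested 34 and 8 in C1P and 10 and 6 in C5P. The topoisomerase gene varied between cotyledon replicates, with 89.6 and 201.8 CPM in C5 and 47.2 and 22.2 in C5P.

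Proteases and ubiquitin genes gave 7 members of 211. The F-box gene MtrunA17_Chr5g0441461, of a family that picks targets for ubiquitination, had 1853 and 1739 CPM in C1 against 17.6 and 15.6 in C1P, and 786 and 815 in C5 against 62.1 and 32.8 in C5P. In radicles it had 262 and 318 CPM in R1 against 21.8 and 19.1 in R1P, and 120.4 and 139 in R5 against 15.4 and 13.2 in R5P. Its C1P difference of -6.68 was the lowest of all members in that comparison. The carboxypeptidase D gene MtrunA17_Chr1g0199991 had -3.32, -1.94, -5.15 and -4.17 in R1P, R5P, C1P and C5P, and the nepenthesin gene MtrunA17_Chr1g0185651, for an aspartic protease, had -2.12, -1.97, -2.87 and -3.32 in R1P, R5P, C1P and C5P. In the list as a whole more genes were called higher than lower in R1P (110 and 77 of 207) and R5P (107 and 57), and in C1P and C5P the counts were 43 higher with 50 lower and 44 higher with 24 lower of 204. None of the genes listed as cytoskeleton (39), immune receptors (124), photosynthesis (12), ribosomal proteins (128), seed maturation (49) or heat shock and chaperones (57) was a member. In the cytoskeleton and immune receptor lists more genes were nevertheless called lower than higher by edgeR, except for cytoskeleton genes in C5P. Those called lower were most of each list only in R1P and R5P. Of 39 tested cytoskeleton genes 29 were lower and 10 higher in R1P, 25 and 9 in R5P, 11 and 6 in C1P, but 1 and 7 in C5P. Of 120 tested immune receptor genes 84 were lower and 18 higher in R1P and 71 and 17 in R5P, and of 104 tested 36 and 8 in C1P and 11 and 8 in C5P. Ribosomal protein genes went the other way in 3 comparisons, with 108 of 125 tested higher and 6 lower in R1P, 70 and 3 in R5P and 96 and 3 in C1P. In C5P only 6 of the 125 were called higher and 1 lower, against 796 and 552 of 4267 tested genes with an entry. The median log2 fold change of the ribosomal list in C5P was still 0.49, and -0.05 over all genes tested. Seed maturation genes went the other way in all 4 comparisons, with 39 of 48 tested higher and 8 lower in R1P, 38 and 6 in R5P, and of 44 tested 35 and 4 in C1P and 32 and 5 in C5P. Heat shock and chaperone genes were mixed, with 19 of 54 tested higher and 25 lower in R1P, 22 and 17 in R5P, and of 53 tested 12 and 14 in C1P and 9 and 12 in C5P.

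Some members had 0 counts in both libraries of a PEG group. MtrunA17_Chr7g0244451, not described in the tables used, had 0 counts in both R1P, both C1P and both C5P libraries. Against a floor of 3 counts per library it was at least 29.9-fold lower in R1P, at least 24.1-fold lower in C1P and at least 113-fold lower in C5P. MtrunA17_Chr8g0367231 had 0 counts in C1P and C5P, which was at least 189-fold and at least 392-fold lower. In R1P, MtrunA17_Chr4g0020521 was at least 65.1-fold and MtrunA17_Chr8g0340011 at least 19.0-fold lower, and in R5P MtrunA17_Chr3g0083381 was at least 46.4-fold lower. The R5 counts of MtrunA17_Chr3g0083381 were not whole, at 86.9 and 193, and the member MtrunA17_Chr3g0083421 lies within 5 places of it. All genes of this paragraph were picked out after their values were seen. The bounds cover counting error only. They do not cover how reads were shared out between transcripts, which can also give a 0.

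The rule compared PEG with untreated samples of one tissue and stage, so it set no difference between untreated groups. It did use the levels of these groups, and a gene could pass only if it was well detected in all 4 of them, so the tests below are not fully independent of the choice of members, and the shares over all genes stand beside them as a description. The first question was how the members changed as untreated seeds grew from the 1 mm to the 5 mm stage. More members rose than fell in both tissues, and the fold was above 1 for most members in cotyledons. In radicles edgeR called 55 of the 200 members (27.5%) higher in R5 than in R1, against 13.8% of all genes tested, and 12 (6%) lower, against 3.78%. The median log2 fold change was 0.28, and -0.07 over all genes. In cotyledons 54 members (27.0%) were higher in C5 than in C1, against 5.70% of all genes, and 1 (0.500%) lower, against 2.92%. The median was 0.66, and 0.01 over all genes, with 170 members above 0 in C5 and 120 in R5. Each group had 2 libraries. The cotyledon count fell to 17 (2.40% of all genes) without the first C5 replicate, 10 (1.31%) without the first C1 replicate and 9 (1.08%) without the second, and was 48 (4.20%) without the second C5 replicate. The members had at least 7.35 CPM on average in untreated samples, while the genes tested include many at lower levels.

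**Figure D4:**
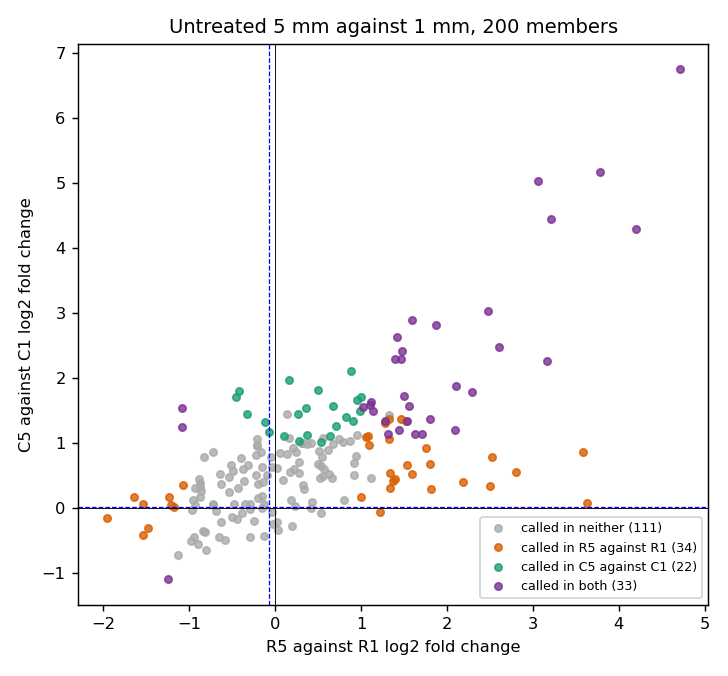
Log2 fold change from 1 mm to 5 mm in untreated radicles (x axis) and cotyledons (y axis) for each of the 200 members. Colours mark the members called by edgeR in neither tissue (111), in radicles only (34), in cotyledons only (22) or in both (33), and the dashed blue lines mark the medians of all genes tested.

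The steepest rise in both tissues was that of MtrunA17_Chr7g0271511, a gene with no description. It went from 7.93 and 7.18 CPM in R1 to 198.8 and 221 in R5, a log2 fold change of 4.70 ± 0.36 (SE, edgeR adjusted p = 1.08e-05). In cotyledons it went from 6.10 and 4.12 CPM in C1 to 671 and 371 in C5, a log2 fold change of 6.75 ± 0.61 (SE, edgeR adjusted p = 9.67e-04). Its PEG libraries stayed low at both stages, at 0.0873 and 0 CPM in R1P, 1.86 and 5.32 in R5P, 0.309 and 0 in C1P and 5.10 and 5.67 in C5P. The squalene monooxygenase gene MtrunA17_Chr4g0049291, for the step that opens sterol and triterpene synthesis from squalene, rose next most in radicles. It had 5.43 and 7.92 CPM in R1 and 126 and 133 in R5, a log2 fold change of 4.20 ± 0.20 (SE, edgeR adjusted p = 1.09e-06). It had 4.33 and 3.77 CPM in C1 and 69.0 and 83.5 in C5, a log2 fold change of 4.29 ± 0.25 (SE, edgeR adjusted p = 4.82e-04). With PEG the gene was at 1.31 and 0.951 CPM in R1P, 4.07 and 3.70 in R5P, 0.402 and 0.569 in C1P and 6.48 and 6.47 in C5P. Its counts were fractional in all 16 libraries, so its values are less certain. MtrunA17_Chr4g0041481, also without a description, rose in cotyledons from 14.9 and 9.93 CPM to 599 and 245, a log2 fold change of 5.18 ± 0.58 (SE, edgeR adjusted p = 0.00203), with both C5 libraries far above C1 but more than a fold of 2 apart.

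Falls with growth were fewer. The SWEET gene MtrunA17_Chr2g0278491, whose values are given above, fell in radicles with a log2 fold change of -1.95 ± 0.37 (SE, edgeR adjusted p = 0.00308). The gene MtrunA17_Chr4g0068841 fell from 296 and 352 CPM in R1 to 101 and 121 in R5, a log2 fold change of -1.63 ± 0.22 (SE, edgeR adjusted p = 4.43e-04). In cotyledons this gene stood at 1168 and 1273 CPM in C1 and 1294 and 1333 in C5, a log2 fold change of 0.17 ± 0.22 (SE, edgeR adjusted p = 0.690). The F-box gene MtrunA17_Chr5g0441461 was the one member called lower in C5 than in C1, with a log2 fold change of -1.10 ± 0.27 (SE, edgeR adjusted p = 0.0374). That call was lost without any one of the 4 libraries compared (adjusted p from 0.134 to 0.226 by edgeR).

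Of the 200 members, 30 were called higher at 5 mm in both tissues, as were 3.27% of all genes tested in both, and 1 was lower in both, as were 0.712%. Another 2 members, MtrunA17_Chr7g0220261 and MtrunA17_Chr4g0051121, rose in cotyledons and fell in radicles. The difference between the tissues was tested as an interaction, added after the data had been seen. By this test the change was higher in cotyledons for 15 members (7.50%), against 1.76% of all genes, and higher in radicles for 9 (4.50%), against 3.69%. Without the first R5 replicate these counts were 4 and 2 (0.549% and 1.77% of all genes). Without any other of the libraries compared they ranged from 6 to 26 (0.478% to 2.38% of all genes) and from 2 to 4 (1.59% to 3.01%). Without the second C1P replicate, which enters the estimate of the spread, they were 25 and 10 (2.25% and 4.20%). Among the described members, 2.10 ± 0.45 (SE, edgeR adjusted p = 0.0157) was the interaction of the WOX gene MtrunA17_Chr3g0119291. The gene had a log2 fold change of 1.70 ± 0.31 (SE, edgeR adjusted p = 0.0137) in cotyledons and a log2 fold change of -0.45 ± 0.26 (SE, edgeR adjusted p = 0.214) in radicles.

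Of the 55 members higher in R5, 6 were among the 96 described and 49 among the 104 not described. Over all genes with an entry in those tables, 220 of 4475 tested were higher in R5, against 13.8% of all genes tested. The study picked the genes with an entry, and some of the copies used are shortened. Which members are described may thus depend on their radicle pattern, and nothing is read from this split. In cotyledons 14 described and 40 undescribed members were higher in C5, and 136 of 4267 tested genes with an entry were. In the cell wall list, 1 of 8 members was called higher in C5, where 4 of the 81 tested genes of the list were, and the members' medians were -0.68 in R5 and 0.25 in C5. Of the 8 transport members 1 rose and 2 fell in R5, where 14 and 9 of the 160 tested genes of the list did, and 1 rose in C5, where 7 of 153 did, with member medians of -0.02 and -0.07. Of the 7 lipid members 2 rose in R5, where 5 of the 61 tested genes of the list did, and 1 in C5, where 7 of 56 did, with member medians of -0.02 and 0.56. Nothing particular to the lists is read from counts of this size.

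The second question was how the members differed between the tissues before PEG. About as many were higher in radicles as in cotyledons at 1 mm, and more were higher in cotyledons at 5 mm. At 1 mm 53 members (26.5%) were higher in C1 than in R1, against 23.0% of all genes tested, and 54 (27.0%) were lower, against 22.4%. At 5 mm 66 (33.0%) were higher in C5 than in R5, against 21.2%, and 46 (23.0%) were lower, against 23.7%. The medians were -0.22 and 0.05, and 0.04 and -0.02 over all genes. At both stages 46 members were higher in cotyledons (16.2% of all genes) and 37 lower (17.3%). With library totals in place of TMM the median of all genes shifted by 0.11 at 1 mm, and 59 members were called higher and 51 lower.

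**Figure D5:**
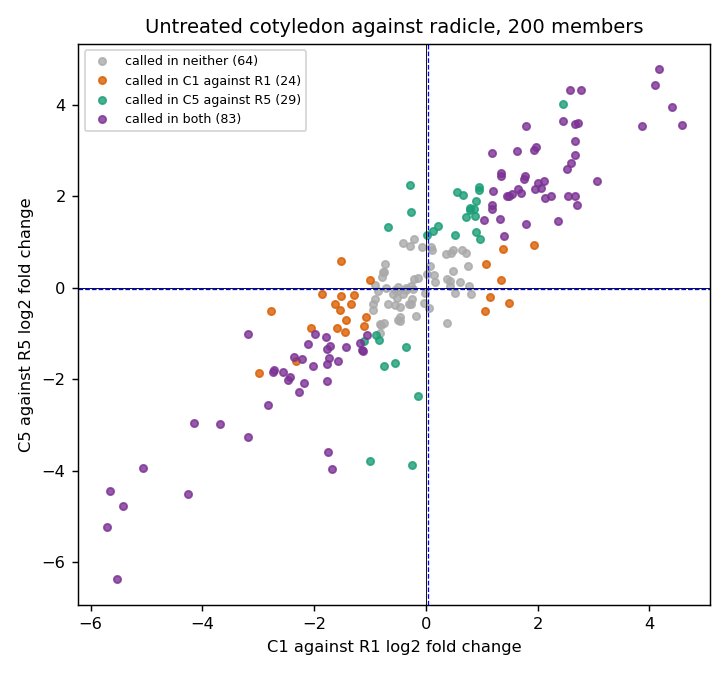
Log2 fold change of cotyledons against radicles in untreated samples at 1 mm (x axis) and 5 mm (y axis) for each of the 200 members. Colours mark the members called by edgeR at neither stage (64), at 1 mm only (24), at 5 mm only (29) or at both (83), and the dashed blue lines mark the medians of all genes tested.

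Higher in radicles was the beta-glucosidase gene MtrunA17_Chr4g0006131, with a log2 fold change of -5.71 ± 0.27 (SE, edgeR adjusted p = 4.92e-09) at 1 mm and a log2 fold change of -5.22 ± 0.26 (SE, edgeR adjusted p = 8.19e-09) at 5 mm. The phosphoglycerate dehydrogenase gene MtrunA17_Chr4g0000511 had a log2 fold change of -5.66 ± 0.22 (SE, edgeR adjusted p = 1.63e-09) at 1 mm. MtrunA17_Chr4g0053871, not described, stood at 899 and 958 CPM in R5 and 11.9 and 10.6 in C5, a log2 fold change of -6.38 ± 0.25 (SE, edgeR adjusted p = 1.14e-09), and PEG left 164 and 164 in R5P and 2.51 and 2.75 in C5P. Higher in cotyledons was MtrunA17_Chr4g0031571, not described, with 5.69 and 5.34 CPM in R1 and 148 and 138 in C1, a log2 fold change of 4.58 ± 0.22 (SE, edgeR adjusted p = 5.13e-09). Its PEG values were 0.178 and 0.175 CPM in R1P and 8.15 and 5.38 in C1P. The gene MtrunA17_Chr1g0188751 had 148 and 123 CPM in R1 and 3404 and 2851 in C1, a log2 fold change of 4.41 ± 0.35 (SE, edgeR adjusted p = 2.30e-07), and it lies next to the alpha-galactosidase gene MtrunA17_Chr1g0188761 in the order of identifiers. At 5 mm the oxidoreductase gene MtrunA17_Chr2g0321201 had 7.60 and 9.01 CPM in R5 and 218 and 245 in C5, a log2 fold change of 4.78 ± 0.28 (SE, edgeR adjusted p = 1.85e-08). The undescribed gene MtrunA17_Chr5g0417351 had 3.37 and 2.41 CPM in R5 and 60.2 and 66.4 in C5, a log2 fold change of 4.43 ± 0.42 (SE, edgeR adjusted p = 1.15e-06). In all of these the libraries of the tissues did not overlap.

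By role, the tissue differences of the members ran both ways. Of the 8 cell wall members 5 were called lower in C1 and 4 in C5, while over the list 43 of 85 tested were lower and 10 higher in C1, and 40 and 14 in C5. Of the 8 transport members 5 were higher and 1 lower in C1, and 4 higher in C5. In the whole transport list 34 of 162 tested were higher and 61 lower in C1, and 30 and 65 in C5. The SWEET gene MtrunA17_Chr2g0278491 was among those higher in cotyledons, with a log2 fold change of 2.57 ± 0.44 (SE, edgeR adjusted p = 2.14e-04) at 1 mm and a log2 fold change of 4.33 ± 0.48 (SE, edgeR adjusted p = 5.05e-06) at 5 mm. The pectin acetylesterase gene MtrunA17_Chr1g0193381 had a log2 fold change of -4.15 ± 0.19 (SE, edgeR adjusted p = 3.91e-09) at 1 mm, and the ascorbate oxidase gene MtrunA17_Chr3g0118321 a log2 fold change of -5.07 ± 0.28 (SE, edgeR adjusted p = 1.06e-08). The P450 genes did not pass the test at 5 mm, with a log2 fold change of -0.02 ± 0.22 (SE, edgeR adjusted p = 0.950) for MtrunA17_Chr2g0288661 and a log2 fold change of 0.28 ± 0.19 (SE, edgeR adjusted p = 0.223) for MtrunA17_Chr2g0307301.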

How the data were processed

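RNA-Seq of 16 libraries (8 groups, 2 biological replicates each, single reads of 50 bp) was analysed. The authors checked reads with FastQC, quantified them against the Mtv5 transcriptome (annotation r1.6) with Salmon 1.2 and deposited expected counts per gene, which need not be whole because reads that fit several transcripts are shared out. No column was left unused.

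The rule for members divided each count by the sum over genes with Chr in the identifier. The members and the gene lists were chosen with earlier results of these data known, and the lists of central carbon enzymes and carbohydrate-active wall enzymes were added after the members had been seen. Descriptions came from the study's supplementary tables (4748 genes), some of them shortened copies. None of the identifiers (0) matched the RefSeq gene table. Chance matches of list words inside other words were dropped.

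Counts were rounded and tested with edgeR 4.0.16 in R 4.3.3 (filterByExpr, TMM, quasi-likelihood test, Benjamini-Hochberg over all genes tested). Radicle libraries (23793 genes), cotyledon libraries (23060) and all 16 together (25524) were fitted with one mean per group and a shared spread. A call required both an adjusted p below 0.05 and a log2 fold change beyond 1 in either direction. The SE given with a fold change was back-calculated, as the absolute log2 fold change divided by the square root of the test's F statistic. Comparisons of PEG with untreated samples used the rule's own values and are not tests. On simulated counts, 200 well-detected genes were changed by one known fold, up or down, with one spread for all genes and no PEG effect. edgeR recovered 200 for R5 against R1, 200 for C5 against C1 and 199 for C1 against R1, with 11, 6 and 8 false calls. The spread of the real replicates differed between groups, so this checks the code and not the power in the real libraries. DESeq2 1.42.0, the tool of the study, was an alternative. Genes were named as the 10 ranked lowest, the 10 with the highest untreated CPM, up to 3 per list with the highest untreated CPM, the 2 largest rises and falls among calls in each tested comparison, and those at the threshold, which gave 52 members with those added for the interaction. Others are marked as chosen after their values were seen. Members not described by name are covered by counts. CPM does not correct for transcript length, so levels are compared within a gene only. With 22012976 to 23257652 counts per library, 3 counts are 0.129 to 0.142 CPM of the chromosomal total, and floors cover counting error only. P-values measure the spread between 2 seed pools per group.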

Additional observations from a re-analysis of the deposited data

Results flagged for a closer look

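The change from 1 mm to 5 mm differed between the tissues for some members. edgeR's interaction test, (C5 - C1) - (R5 - R1), gave 15 members (7.50%, against 1.76% of all genes) with a signed change that was higher in cotyledons and 9 (4.50%, against 3.69%) with one that was higher in radicles. Without the first R5 replicate the counts were 4 and 2 (0.549% and 1.77% of all genes).

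The undescribed gene MtrunA17_Chr7g0220261 had an interaction of 2.55 ± 0.47 on the log2 scale (SE, edgeR adjusted p = 0.00641), with 50.2 and 38.9 CPM in R1 and 23.8 and 21.2 in R5, and 26.7 and 52.3 in C1 and 94.8 and 125 in C5. It was lower with growth in radicles and higher in cotyledons, in both cases without overlap.

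For MtrunA17_Chr4g0051121, also undescribed, the interaction was 2.27 ± 0.29 on the log2 scale (SE, edgeR adjusted p = 6.33e-04), with 147 and 144 CPM in R1, 71.6 and 75.3 in R5, 21.9 and 24.2 in C1 and 58.3 and 45.8 in C5. The direction was again opposite in the tissues.

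MtrunA17_Chr6g0463501, described only as a putative protein, had -3.62 ± 0.40 on the log2 scale (SE, edgeR adjusted p = 2.47e-04), with 27.3 and 23.0 CPM in R1, 353 and 308 in R5, 27.5 and 18.6 in C1 and 18.7 and 27.8 in C5. Its rise was seen in radicles, while its C1 and C5 libraries overlapped.

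MtrunA17_Chr3g0109901 had -2.29 ± 0.31 on the log2 scale (SE, edgeR adjusted p = 9.22e-04), with 14.3 and 14.2 CPM in R1, 98.2 and 113 in R5, 4.73 and 4.91 in C1 and 7.87 and 5.62 in C5. Its radicle libraries at 5 mm were far above those at 1 mm.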

How the results depend on the processing

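The rule was repeated in other forms. All 200 members passed it with TMM-scaled CPM, a pseudocount of 0.1 CPM or any one library left out, while 158 passed with a pseudocount of 5 CPM and 196 with the first replicate of each group alone. Being among the 200 lowest was less stable, and held for 185 members with TMM-scaled CPM, 118 with a pseudocount of 0.1 CPM, 128 with 5 CPM, 162 and 154 with the first or second replicate of each group alone, and 179 to 195 with one library left out. The PEG comparisons called 180 to 200 members lower over 30 alternatives, and 200 in each of C1P and C5P with the replicate numbers of the cotyledon PEG groups crossed. Of 178 counts under alternatives planned or added, 152 stayed within 1.5 times the reported one and 26 did not. The 178 include the 30 of the PEG comparisons and the other forms of the rule, which used the rule's own values and had little room to move. The 26 were all counts of R5 against R1, C5 against C1 or the interaction. Members lower in R5 numbered 35 (17.5%) with adjusted p alone, against 15% of all genes. Members higher in C5 numbered 9 to 58 (1.08% to 6.41% of all genes) with one replicate left out, and those lower 0 to 1 (edgeR, with 1 in the full fit). The interaction gave 27 members higher in cotyledons with DESeq2 (3.07% of all genes) and 29 with the 8 untreated libraries alone (2.66%), and 4 to 26 higher and 2 to 10 lower with one replicate left out.

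The correlation of replicate deviations between groups ran from -0.28 to 0.155. In cotyledons it was -0.262 for C1 with C1P and -0.28 for C5 with C5P. It was 0.125 for C1 with C5 and 0.136 for C1P with C5P. Whether replicate numbers pair the samples, or pair them crossed between untreated and PEG cotyledons, was not settled. With the PEG numbers crossed as a block, 17.4% of all genes were called lower in C1P and 13.7% in C5P. Without a block these shares were 14.9% and 12.1%, and with the numbers as given they were lower still. With the replicate number as a block, 56 members were higher and 12 lower in R5 (13.7% and 3.80% of all genes), 37 and 0 in C5 (3.65% and 1.81%), 53 and 54 in C1 against R1 (22.7% and 22%), and 66 and 46 in C5 against R5 (20.8% and 23%). With 2 libraries per group, a gene can be called or lost by one library. Cold and darkness came only with PEG. Reads shared between transcripts make neighbouring copies, and other genes with fractional counts, uncertain. Among the named genes, counts were fractional in all 16 libraries for MtrunA17_Chr4g0049291, MtrunA17_Chr4g0068841, MtrunA17_Chr4g0031571, MtrunA17_Chr5g0417351, MtrunA17_Chr6g0463501, MtrunA17_Chr6g0469631, MtrunA17_Chr2g0307301 and some others. For MtrunA17_Chr1g0188751 they were so in 15. No description was found for 104 members in the partly shortened copies of the study's tables.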

Other observations

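Some members lie close together. In the order of identifiers, 38 members (19.0%) formed 17 runs in which each was within 5 places of the next. Of the 38, 25 had counts that were not whole in at least 8 libraries, as did 78 of all members. The longest run held 4 members, the fasciclin-like arabinogalactan protein gene MtrunA17_Chr2g0322251, MtrunA17_Chr2g0322301 and the cellulose synthase genes MtrunA17_Chr2g0322331 and MtrunA17_Chr2g0322341. Among all 784 genes that passed the rule, 29.5% were in such runs among themselves. A larger set has more genes in runs by chance, so this share cannot be set against that of the members. Whether members lie closer together than other genes was not tested. The member share on each chromosome was between 10.0% and 17.5%. It was above the share of all chromosomal genes on chromosomes 1 (15.5% against 13.9%), 2 (17.5% against 11.7%) and 6 (10.5% against 7.997%). On chromosomes 3, 4, 5, 7 and 8 it was below, with 12% against 15.6% on chromosome 4. These differences were not tested.

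Replicates of a member differed most in C5, by a median of 0.32 log2 units, and least in R5, by 0.14. In C1P, where one library stood apart, the median was 0.31, and 13 members differed by more than 1 between the replicates.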
